A study of Homo sapiens with 36 samples.

Results

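INSIG1 and 7 companions in sterol sensing and LDL uptake (INSIG2, SCAP, SREBF1, SREBF2, STARD4, MYLIP and NPC1) were followed through polysome gradients of MDA-MB-231 cells, an established human triple-negative breast cancer line, in which the supply of isoleucine tRNAs had been altered. The 8 genes were taken by symbol from the 26485 gene symbols of the count files, and all 8 passed the filter on low counts in each of the 3 fractions. INSIG1 was chosen by its fall against control in total RNA and in the high-translating fraction, so its values in those 6 comparisons, and in others between lines in the same libraries, are given as a description, with no test. The other 7 genes were listed as parts of the same pathway, with earlier results of these data known.

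The study held 36 libraries, 3 (replicates A, B and C) from each of 4 lines in each of 3 fractions. Control cells carried a CRISPR interference (CRISPRi) construct aimed at eGFP and a control overexpression construct. UAU cells carried the eGFP CRISPRi construct and overexpressed the isoleucine tRNA with anticodon UAU. GAUi cells carried CRISPRi against the isoleucine tRNA with anticodon GAU and the control overexpression construct, and isoswitch cells carried both changes. All lines were grown in 15 cm dishes and held in 100 ug/mL cycloheximide, which stalls ribosomes on mRNA, for 5 min before lysis. The fractions were the unfractionated lysate (total RNA), the 80S monosome with the first polysome peak (low-translating) and the heavier polysomes (high-translating). The labels give the source as a xenograft cell line and do not say whether a line is 1 clone or a pool, or whether A, B and C came from separate cultures. P-values therefore measure the spread between these libraries, which may be technical. Libraries were made with a 3' mRNA protocol, which does not read mature tRNAs, so the targeted tRNAs gave no check of the labels.

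SREBP2 (gene SREBF2) and SREBP1 (SREBF1) are membrane-bound transcription factors that SCAP carries from the endoplasmic reticulum to the Golgi, where proteases free the active part. When sterols are plentiful, INSIG1 and INSIG2 hold SCAP in the endoplasmic reticulum, so the SREBPs stay inactive and their targets, which include INSIG1 itself and many cholesterol synthesis enzymes, are transcribed less. STARD4 carries cholesterol between membranes, NPC1 exports LDL-derived cholesterol from late endosomes, and MYLIP, a ubiquitin ligase induced through LXR, limits lipoprotein uptake. These measurements are of mRNA and say nothing on the processing of the SREBP proteins.

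Library totals ranged from 5192464 to 8974001 counts. Levels are CPM, counts scaled to a common library size, after TMM scaling over all 36 libraries. They are used to compare 1 gene between libraries, not genes with each other. Of the markers, the 6 mesenchymal genes typical of this line summed to 2813 to 7068 CPM in every library, and CDH1, ESRP1, ESR1, PGR and FOXA1 stayed under 1 CPM in total RNA. Among the 10 epithelial and luminal markers, KRT18 reached 241 to 389 CPM and EPCAM 10.6 to 17.4 CPM in total RNA. KRT8 held 30.6 to 51.6, GATA3 12.9 to 23.8 and ERBB2 7.49 to 15.2 CPM in total RNA. COL3A1, DCN, CD3E, ITGAM and CDH5, markers of fibroblasts, leukocytes and endothelium, were at 0 there. Over all libraries the epithelial and luminal list summed to 138 to 474 CPM. Fibroblast, leukocyte and endothelial lists summed to at most 5.98, 1.63 and 8.498 CPM. Replicates differed by 1.79 to 23.8 times their counting variance (chi-square per degree of freedom). The 3 GAUi total RNA libraries differed from each other by 8.53 to 23.8, and low-fraction control B differed from A and C by 15.8 and 13.7, where A and C differed by 2.88. Where leaving out 1 of these libraries moved a member's call against control or the count of a gene list given below, the value without it stands beside the result. High-fraction UAU C differed from A and B by 9.01 and 5.35, where A and B differed by 2.48. Low-fraction UAU A and C differed by 9.29. Gene list counts were not computed without these UAU libraries.

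To show what lies just upstream of the genes whose mRNA moved, the 250 bases before the RefSeq start (GRCh38.p14, the gene's own strand, 5' to 3') are printed for INSIG1, for STARD4, the member whose pattern over the libraries was most like that of INSIG1, and for SREBF2, the member with the largest fall in the high-translating fraction of isoswitch cells after INSIG1. Capitals mark 3 motifs searched on both strands. They are TCACNCCAC, a form of the sterol regulatory element, TCACGTGA, an E-box palindrome of the kind that SREBPs also bind, and CCAAT, the site of NF-Y, which reads ATTGG where it lies on the opposite strand.
INSIG1, chr7:155297628-155297877, plus strand: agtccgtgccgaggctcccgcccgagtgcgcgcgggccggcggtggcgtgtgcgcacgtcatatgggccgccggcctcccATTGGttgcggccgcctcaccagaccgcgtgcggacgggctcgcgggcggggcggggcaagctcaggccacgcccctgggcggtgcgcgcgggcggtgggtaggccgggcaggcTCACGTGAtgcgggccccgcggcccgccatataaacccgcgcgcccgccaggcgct
STARD4, chr5:111512536-111512785, minus strand: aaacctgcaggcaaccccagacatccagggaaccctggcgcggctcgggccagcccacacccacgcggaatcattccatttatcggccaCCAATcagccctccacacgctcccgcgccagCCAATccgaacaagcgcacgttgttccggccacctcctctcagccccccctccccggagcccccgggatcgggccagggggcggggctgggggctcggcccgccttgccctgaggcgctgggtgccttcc
SREBF2, chr22:41832855-41833104, plus strand: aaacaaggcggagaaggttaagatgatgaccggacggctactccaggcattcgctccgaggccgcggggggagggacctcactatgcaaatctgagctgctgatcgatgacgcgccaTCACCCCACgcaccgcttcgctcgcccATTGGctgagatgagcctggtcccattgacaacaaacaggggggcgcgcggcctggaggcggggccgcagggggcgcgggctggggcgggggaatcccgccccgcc
INSIG1 held the E-box at -56 to -49 and an ATTGG at -170 to -166, counted from the start. SREBF2 held TCACCCCAC at -133 to -125 and an ATTGG at -106 to -102, and STARD4 held 2 CCAAT, from -161 and from -130. Of 35116 RefSeq promoter windows of the same length, TCACNCCAC was found in 310 (0.883%), TCACGTGA in 300 (0.854%) and CCAAT in 32.01%. Among the 8 members, TCACNCCAC was in 1, TCACGTGA in 1 and CCAAT in 4, MYLIP being the fourth of these. A match is a stretch of letters and was not tied to binding in these cells.

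INSIG1 mRNA was lower in all 3 modified lines than in control in every fraction, and every GAUi library held more of it than every UAU or isoswitch library of the same fraction. In total RNA, control libraries A, B and C held 295, 286 and 302 CPM. UAU libraries held 129.5, 123 and 122 CPM, GAUi libraries 144, 168 and 162 CPM, and isoswitch libraries 139, 132 and 132 CPM. No modified library reached the lowest control library. The log2 fold changes were -1.22 in UAU (SE 0.08), -0.92 in GAUi (SE 0.08) and -1.14 in isoswitch (SE 0.08), or 2.32-fold, 1.89-fold and 2.20-fold lower. Without GAUi library A, B or C in turn, the GAUi change lay between -0.97 and -0.85.

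Control libraries of the high-translating fraction held 330.1, 349 and 358 CPM of INSIG1. UAU libraries held 164, 159 and 144 CPM, GAUi libraries 222, 207 and 208 CPM, and isoswitch libraries 151, 148 and 154 CPM. Again no modified library overlapped control, and GAUi lay between control and the other lines. The log2 fold changes were -1.14 (SE 0.08), -0.70 (SE 0.08) and -1.20 (SE 0.08) in UAU, GAUi and isoswitch cells.

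The low-translating fraction was not used in choosing INSIG1, so INSIG1 was tested there. That fraction came from the same lines as the libraries that chose INSIG1. A fall there is therefore not independent of the choice, and the p-values are no separate check of it. Control libraries held 379, 294 and 403 CPM, the lowest being library B. UAU libraries held 192, 191 and 167 CPM, GAUi libraries 226, 224 and 211 CPM, and isoswitch libraries 194, 176 and 169 CPM, all under the lowest control. INSIG1 fell in UAU (log2 fold change -0.97, SE 0.11, edgeR adjusted p = 0.000432), in GAUi (-0.71, SE 0.11, adjusted p = 0.00146) and in isoswitch cells (-0.998, SE 0.11, adjusted p = 8.82e-05). Without control library B the changes were -1.10, -0.84 and -1.12. In a fit of UAU and control libraries alone, the UAU value was -0.97 with an adjusted p of 0.0689.

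**Figure D1:**
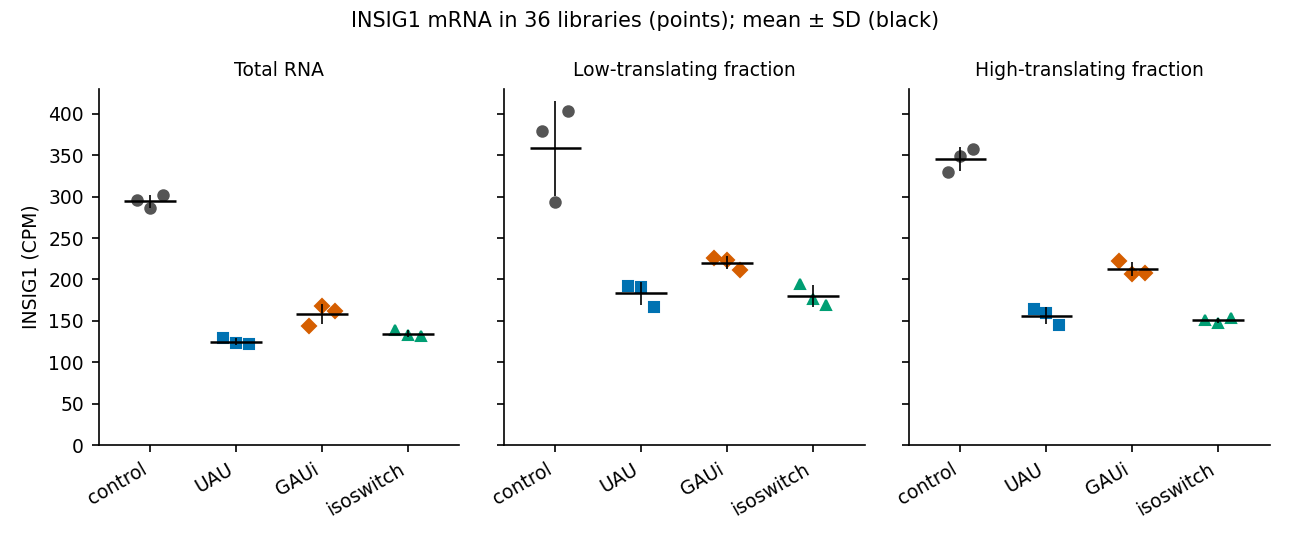
INSIG1 mRNA (CPM, linear axis from 0) in each library of the 4 lines, by fraction; points are libraries A, B and C from left to right, black lines the mean and SD. Control libraries lie at 286 CPM or more throughout, and no library of a modified line exceeds 226 CPM.

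Compared with each other, the modified lines fell into a similar order in the 3 fractions. In total RNA and the high-translating fraction, whose libraries chose INSIG1, the differences are described with no test. UAU minus GAUi was -0.44 on the log2 scale (SE 0.08) in the high-translating fraction and -0.30 (SE 0.08) in total RNA. Isoswitch minus GAUi was -0.51 (SE 0.08) in the high-translating fraction and -0.22 (SE 0.08) in total RNA, the latter from -0.29 to -0.17 without GAUi library A, B or C in turn. Isoswitch minus UAU was -0.07 (SE 0.08) and 0.08 (SE 0.08) in the same fractions. In the low fraction, where INSIG1 was tested, no pair of modified lines was called. UAU minus GAUi was -0.26 there (SE 0.11, adjusted p = 0.214), isoswitch minus GAUi -0.29 (SE 0.11, adjusted p = 0.609) and isoswitch minus UAU -0.03 (SE 0.11, adjusted p = 0.934).

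If the effects of the 2 changes added on the log2 scale, isoswitch total RNA would stand at -2.13 against control for INSIG1, the sum of the UAU and GAUi values, where -1.14 was measured. The sum was -1.83 in the high-translating fraction, where -1.20 was measured, and -1.68 in the low, where -0.998 was measured. The interaction, which is the isoswitch-GAUi difference less the UAU-control difference, was thus 0.998 in total RNA and 0.63 in the high-translating fraction, given without a test. In the low fraction it was 0.68 (SE 0.16, adjusted p = 0.0704), and 0.81 without control library B (adjusted p = 0.00221). DESeq2 gave 0.68 there (adjusted p = 0.00381).

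Across all 12 groups, mean INSIG1 levels ran from 358 ± 57.5 CPM (SD, n = 3, here and below) in low-fraction control to 124.8 ± 4.14 CPM in UAU total RNA. The 3 control groups ranked highest, those of the low and high fractions overlapping, and the lowest control group, total RNA, was 294 ± 7.93 CPM. Next came GAUi in the low (220.2 ± 7.80 CPM) and high (212 ± 8.65 CPM) fractions, whose libraries overlapped. UAU (183 ± 13.9 CPM) and isoswitch (179.8 ± 13.3 CPM) in the low fraction overlapped each other, as did GAUi total RNA (158 ± 12.6 CPM), UAU high (156 ± 10.3 CPM) and isoswitch high (151 ± 3.13 CPM), each with its neighbour. Isoswitch total RNA stood at 134 ± 3.95 CPM. This order sets shares of different RNA pools side by side, since each library was scaled to its own total.

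Against control in total RNA, 1 of 8 members was called in UAU (0.914% of 12357 genes tested), 3 in GAUi (10.1% of genes) and 1 in isoswitch (4.05%), all of them lower. INSIG1 was the 1 called in UAU and isoswitch, and in GAUi SREBF2 and STARD4 joined it. In the low-translating fraction INSIG1 was the 1 member called in each line, where 0.691% of 12445 genes were called in UAU, 3.4% in GAUi and 2.58% in isoswitch. In the high-translating fraction 5 members were called in UAU (28.7% of 11979 genes), 1 in GAUi (10.1%) and 3 in isoswitch (11%), again all lower. INSIG1 is in each of these counts, and the total RNA and high-fraction contrasts chose it, so nothing is read from those counts. Over all genes the median log2 fold change lay between -0.0046 and 0.0082 in the 9 comparisons with control.

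**Figure D2:**
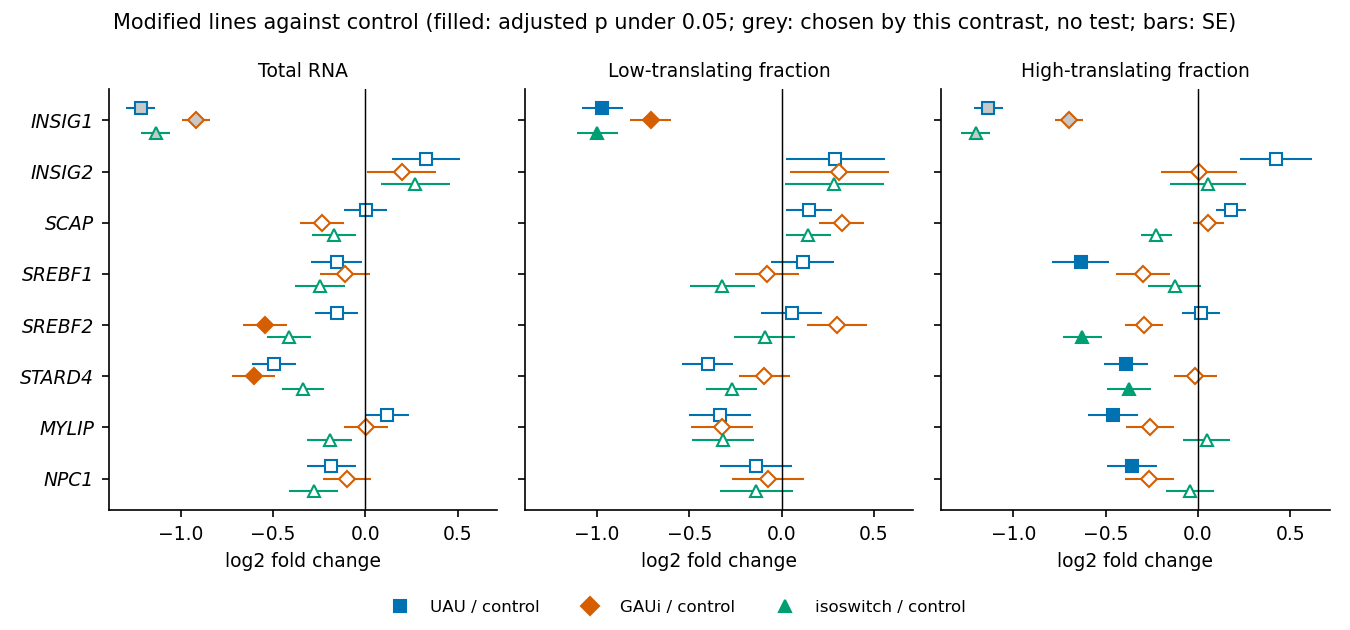
Log2 fold change of each member against control (horizontal axis) in UAU (blue squares), GAUi (orange diamonds) and isoswitch cells (green triangles), with bars of 1 SE, by fraction. Filled symbols passed adjusted p under 0.05, grey-filled INSIG1 symbols were not tested, and INSIG1 lies farthest to the left in every panel.

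INSIG2, the second protein that retains SCAP, was called in none of the 25 comparisons by edgeR. At an unadjusted p under 0.05 it passed in 2, UAU against control and against GAUi in the high-translating fraction, and DESeq2 called it in 0. Its counts were low, 24 to 105 per library, which limits what could be detected. In total RNA it stood at 8.32 ± 0.709 CPM in control, 10.3 ± 0.750 in UAU, 9.63 ± 2.15 in GAUi and 10.0 ± 1.98 in isoswitch cells. The GAUi change of 0.20 was 0.04 without GAUi library A and 0.37 without B. Its UAU libraries in the high-translating fraction held 12.2, 11.7 and 8.72 CPM and control libraries 7.22, 9.10 and 8.16 CPM, and the groups overlapped (log2 fold change 0.42, SE 0.20, adjusted p = 0.11). Without UAU library C that value was 0.57 (adjusted p = 0.0352). The 6 estimates against control in total RNA and the high-translating fraction lay between 0.01 and 0.42 and none passed the test. The low-fraction estimates of 0.29 in UAU, 0.31 in GAUi and 0.29 in isoswitch cells turned to -0.04, -0.02 and -0.05 without control library B, which held 4.43 CPM against 11.5 and 12.1 CPM.

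SCAP, the sterol-sensing escort of the SREBPs, differed between the modified lines in the high-translating fraction and in none of the comparisons with control. High-fraction libraries of UAU held 173, 151 and 163 CPM, those of GAUi 155, 142 and 153 CPM, and those of isoswitch 118, 128 and 127 CPM. Every isoswitch library lay under every UAU and GAUi library. Isoswitch was lower than UAU (log2 difference -0.41, SE 0.08, adjusted p = 0.000304) and than GAUi (-0.28, SE 0.08, adjusted p = 0.0219). The second call was lost when 1 of 4 libraries was left out (GAUi A or C, isoswitch A or C), with adjusted p from 0.0606 to 0.115. Control libraries held 143, 136 and 156 CPM, above all isoswitch libraries, with a log2 fold change of -0.22 (SE 0.08, adjusted p = 0.0833). In total RNA SCAP was at 78.9 ± 2.42 CPM in control and 68.0 ± 13.2 CPM in GAUi. That change was -0.24 (adjusted p = 0.217), and it was -0.34 without GAUi library A (adjusted p = 0.0341), -0.08 without B (0.614) and -0.30 without C (0.144). Low-fraction GAUi stood 0.33 above control (adjusted p = 0.157), and 0.46 without control library B (adjusted p = 0.0189).

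SREBF2, which encodes the SREBP that mainly drives cholesterol synthesis, was lower in isoswitch cells than in each other line in the high-translating fraction. Control libraries held 62.1, 58.1 and 70.3 CPM, UAU libraries 62.7, 60.6 and 67.1 CPM, GAUi libraries 56.1, 48.0 and 50.5 CPM, and isoswitch libraries 35.9, 44.5 and 43.6 CPM. UAU overlapped control, and isoswitch lay under all libraries of the other lines. The log2 difference of isoswitch was -0.63 from control (SE 0.11, adjusted p = 0.000214), -0.64 from UAU (SE 0.11, adjusted p = 2.17e-05) and -0.33 from GAUi (SE 0.11, adjusted p = 0.0345). GAUi stood 0.29 under control (SE 0.10, adjusted p = 0.0674) and UAU 0.31 above GAUi (SE 0.10, adjusted p = 0.0375). The isoswitch-GAUi call was lost when GAUi A or C or isoswitch A or C was left out (adjusted p from 0.0599 to 0.225), and the UAU-GAUi call when any UAU library or GAUi B or C was left out (from 0.0585 to 0.164).

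In total RNA, SREBF2 fell in GAUi cells, from 47.1, 47.2 and 39.5 CPM in control to 33.2, 25.8 and 34.2 CPM (log2 change -0.54, SE 0.12, adjusted p = 0.00669). The groups did not overlap. Without GAUi A, B or C in turn the change was -0.60, -0.43 and -0.61, with the highest adjusted p at 0.0167, and in a fit of those 2 lines alone the adjusted p was 0.0529. Isoswitch libraries held 31.3, 36.9 and 32.6 CPM, also apart from control (-0.41, SE 0.12, adjusted p = 0.0575), and in the fit of those lines alone the adjusted p was 0.000759. UAU total RNA held 39.5 ± 2.43 CPM, which exceeded GAUi by 0.39 (SE 0.12, adjusted p = 0.0356), a call lost without any 1 UAU library (adjusted p from 0.0503 to 0.123), without GAUi B (0.113) or with those lines alone (0.128). In the low fraction no line was called against control, and library B of control was the highest there at 67.1 CPM against 43.2 and 47.7 CPM. Without it, GAUi stood 0.51 above control (adjusted p = 0.0449), where it was 0.30 with it (adjusted p = 0.355).

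SREBF1, whose products mainly drive fatty acid synthesis, was lower in the high-translating fraction of UAU cells. Control libraries held 24.02, 19.6 and 18.5 CPM and UAU libraries 13.96, 13.1 and 12.9 CPM, with no overlap (log2 fold change -0.64, SE 0.15, adjusted p = 0.00266). Isoswitch libraries held 22.3, 16.5 and 18.9 CPM, overlapping control, and exceeded UAU by 0.51 (SE 0.16, adjusted p = 0.0101). Without isoswitch library A that difference was 0.38 (adjusted p = 0.0894). GAUi held 20.1, 17.01 and 13.6 CPM, spanning the range between UAU and control (-0.30, adjusted p = 0.206). Against UAU cells, SREBF1 was therefore higher, and SREBF2 lower, in the high-translating fraction of isoswitch cells. In total RNA SREBF1 stood at 38.1 ± 1.61 CPM in control, 33.7 ± 2.75 in UAU, 35.4 ± 8.64 in GAUi and 32.2 ± 1.55 in isoswitch cells, and no line was called. In an edgeR fit of isoswitch and control libraries alone, the isoswitch change was -0.25 (adjusted p = 0.0496). The GAUi change of -0.11 was -0.31 without GAUi library A (adjusted p = 0.0636) and 0.04 without C (0.866).

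STARD4, which moves cholesterol between membranes, had negative estimates against control in all 9 combinations of line and fraction, as had INSIG1 and NPC1, and was called in 3 of them. In total RNA STARD4 libraries held 30.8, 30.04 and 27.7 CPM in control, 21.3, 18.6 and 22.01 CPM in UAU, 17.7, 19.2 and 22.4 CPM in GAUi, and 22.8, 22.3 and 25.2 CPM in isoswitch cells. All modified libraries lay under control. GAUi was called (log2 fold change -0.60, SE 0.12, adjusted p = 0.00294), with changes from -0.69 to -0.52 without GAUi A, B or C in turn. UAU narrowly missed the threshold (-0.50, SE 0.12, adjusted p = 0.0505, and 0.0317 by DESeq2). Isoswitch was at -0.34 (SE 0.12, adjusted p = 0.128). In edgeR fits of each line with control alone, both passed, at an adjusted p of 0.0041 in UAU and 0.015 in isoswitch cells. UAU also passed with RLE scaling (0.0495) and with no filter on low counts (0.0327).

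High-fraction STARD4 stood at 31.5, 28.8 and 31.5 CPM in control, 23.4, 25.96 and 20.6 CPM in UAU, 26.98, 33.9 and 29.7 CPM in GAUi, and 21.99, 24.9 and 24.5 CPM in isoswitch cells. UAU and isoswitch lay under control, and GAUi overlapped it. STARD4 fell in UAU (-0.39, SE 0.12, adjusted p = 0.0151) and isoswitch (-0.37, SE 0.12, adjusted p = 0.0423), and GAUi was at -0.01 (SE 0.12, adjusted p = 0.959). Both lines also held less than GAUi (UAU -0.38, adjusted p = 0.0306, and isoswitch -0.36, adjusted p = 0.0418). These 4 calls rest on single libraries. The UAU call was lost without control A or UAU C (adjusted p 0.061 and 0.0701), and the isoswitch call without any 1 library of either group (0.0539 to 0.191) and with DESeq2 (0.0878). UAU minus GAUi was lost without UAU A or C or GAUi B or C (0.0575 to 0.193), and isoswitch minus GAUi without GAUi B or C or any isoswitch library (0.0524 to 0.214). Low-fraction UAU stood at -0.40 (adjusted p = 0.198), and at -0.55 without control library B (adjusted p = 0.0271).

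NPC1, the late endosomal cholesterol exporter, changed little. High-fraction libraries held 17.5, 19.6 and 18.5 CPM in control and 13.96, 13.9 and 15.0 CPM in UAU, without overlap (log2 fold change -0.36, SE 0.13, adjusted p = 0.0456). That call was lost with RLE scaling (adjusted p = 0.05003), with UAU and control libraries alone (0.061), with DESeq2 (0.104), with no filter on low counts (0.0839) and without any control library or UAU A or B (0.0627 to 0.144). In total RNA NPC1 was at 27.4 ± 0.970 CPM in control and 22.6 ± 1.35 CPM in isoswitch cells (-0.28, SE 0.13, adjusted p = 0.304). Low-fraction control libraries held 23.1, 10.9 and 19.2 CPM, with library B the lowest.

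MYLIP, the ubiquitin ligase that limits lipoprotein uptake, was lower in the high-translating fraction of UAU cells than in control or isoswitch cells. Control libraries held 20.1, 21.9 and 18.3 CPM, UAU libraries 16.4, 12.9 and 14.04 CPM, and isoswitch libraries 20.5, 20.1 and 22.4 CPM. UAU lay under both other lines, which overlapped each other. The log2 difference of UAU was -0.46 from control (SE 0.13, adjusted p = 0.0115), lost without control B (adjusted p = 0.0621) or UAU B (0.0557), and isoswitch exceeded UAU by 0.51 (SE 0.14, adjusted p = 0.00355). GAUi held 15.2, 16.2 and 19.2 CPM (-0.26 from control, adjusted p = 0.218). In total RNA MYLIP stood at 22.4 ± 0.454 CPM in control and 23.96 ± 0.281 CPM in UAU (0.12, SE 0.12, adjusted p = 0.748).

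**Figure D3:**
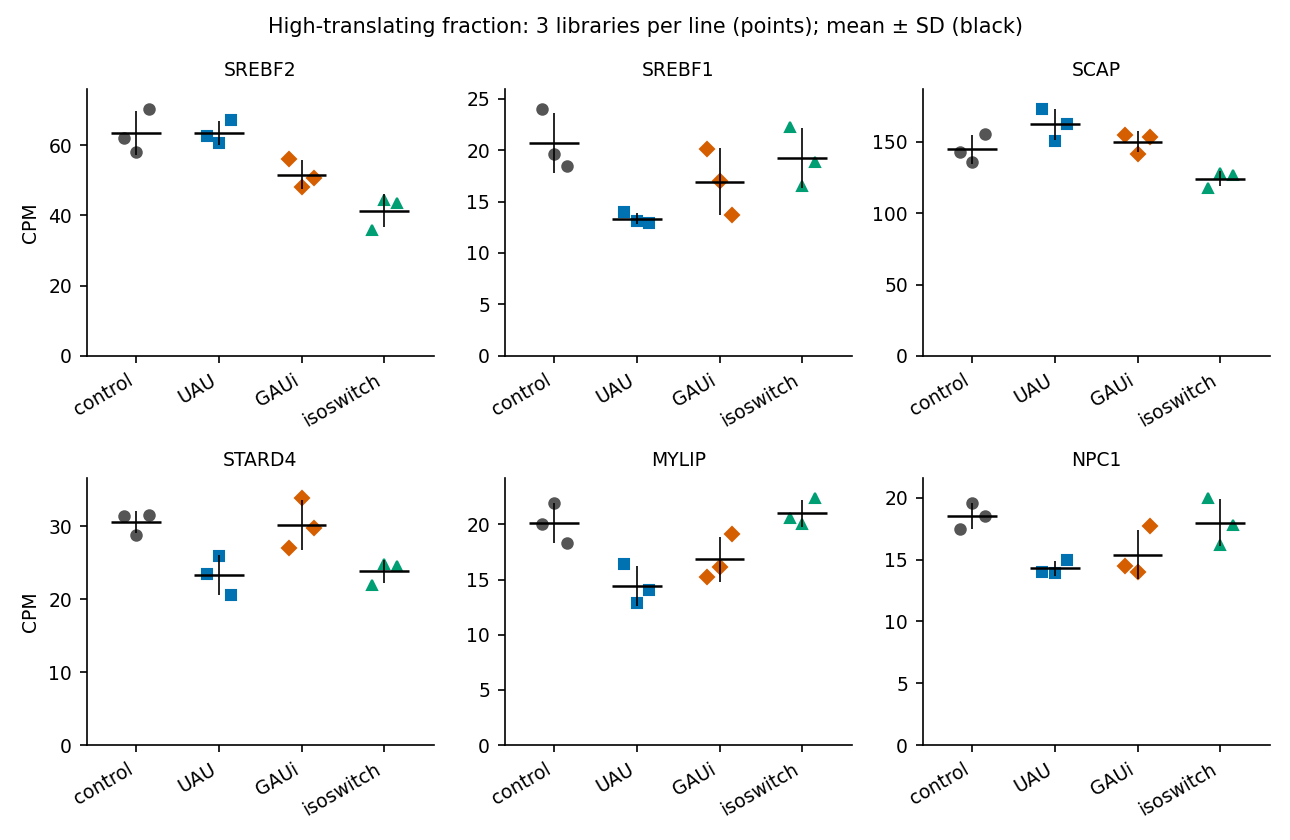
Levels (CPM, linear axes from 0) of 6 members in the 12 libraries of the high-translating fraction; points are libraries A, B and C from left to right, black lines the mean and SD. By mean, SREBF2 and SCAP are lowest in isoswitch cells, SREBF1, MYLIP and NPC1 in UAU cells, and STARD4 in both UAU and isoswitch cells. For SREBF1, MYLIP and NPC1 the UAU libraries overlap those of GAUi, and UAU minus GAUi was not called.

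Among the modified lines in the high-translating fraction, 2 of the 7 members besides INSIG1 were called between UAU and GAUi (17.7% of genes), 4 between isoswitch and UAU (41.6%) and 3 between isoswitch and GAUi (15.8%). The 4 between isoswitch and UAU were split, with SCAP and SREBF2 lower and SREBF1 and MYLIP higher in isoswitch cells. The 3 between isoswitch and GAUi (SCAP, SREBF2 and STARD4) were lower in isoswitch cells. With INSIG1 counted in, the total of 11 calls fell to 6 without GAUi library C and 7 without isoswitch library A. In total RNA 1 member besides INSIG1, SREBF2, was called between UAU and GAUi (14.8% of genes). Between isoswitch and UAU (3.42% of genes) and between isoswitch and GAUi (0.113%), edgeR and DESeq2 each called 0 members, with 2 members in each, INSIG1 among them in the second, under an unadjusted p of 0.05. In the low fraction edgeR and DESeq2 called 0 members between any pair of modified lines. There 2, 1 and 2 members passed an unadjusted p of 0.05 between UAU and GAUi, isoswitch and UAU, and isoswitch and GAUi, where edgeR called 3.95%, 4.25% and 0% of genes. The 0% stands for 0 genes, with 890 at an unadjusted p under 0.05 and 23 called by DESeq2.

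**Figure D4:**
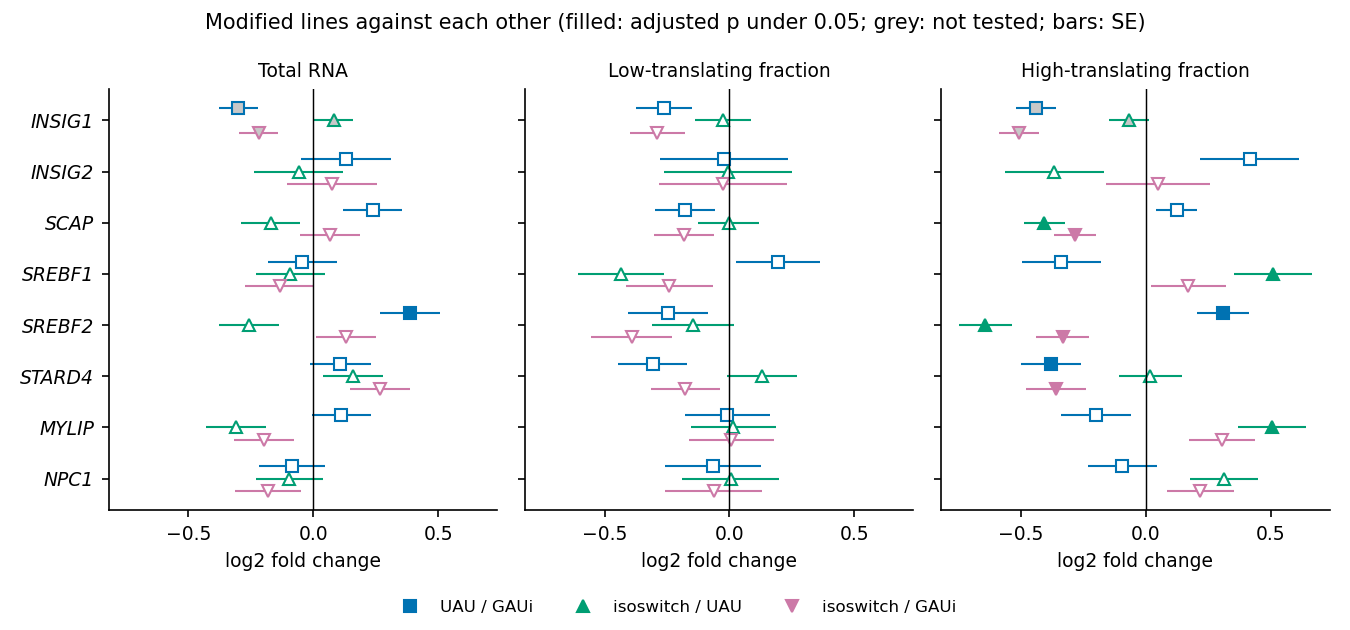
Log2 fold change between modified lines (horizontal axis; UAU over GAUi, isoswitch over UAU, isoswitch over GAUi) of each member by fraction, with bars of 1 SE; filled symbols passed adjusted p under 0.05 and grey-filled INSIG1 symbols were not tested. Colour-filled symbols are 1 in total RNA, 0 in the low and 9 in the high-translating fraction.

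The effect of UAU overexpression differed between GAUi and eGFP cells for 4 members besides INSIG1 in the high-translating fraction (35.7% of genes). It was higher in GAUi cells for SREBF1 (interaction 0.81, SE 0.22, adjusted p = 0.00429), MYLIP (0.76, SE 0.19, adjusted p = 0.00226) and NPC1 (0.58, SE 0.19, adjusted p = 0.019), and lower for SCAP (-0.46, SE 0.12, adjusted p = 0.00293). For MYLIP, UAU overexpression went with a fall in eGFP cells and with levels of 16.9 ± 2.05 in GAUi and 21.004 ± 1.23 CPM in isoswitch cells. The isoswitch minus GAUi difference of MYLIP was 0.31 (SE 0.13, edgeR adjusted p = 0.12) and was not called. The NPC1 value was lost without GAUi A, GAUi B or isoswitch A (adjusted p 0.0501, 0.0546 and 0.0658). SREBF2, at -0.35 (SE 0.15, adjusted p = 0.0654), was called without control C (0.0356) or isoswitch B (0.0461). In total RNA edgeR called 0 members besides INSIG1 (0.0243% of genes), with 1, STARD4, at an unadjusted p under 0.05. It had an interaction of 0.76 (adjusted p = 0.101; 0.0499 by DESeq2). In the low fraction edgeR called 0 members (0.233% of genes), with 1 at an unadjusted p under 0.05 and the same number called by DESeq2, INSIG1.

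The high-translating libraries also differed in transcripts that are mostly outside heavy polysomes. The 21 small nucleolar RNA host genes (SNHG), a set chosen after its values were seen, summed to 7376 to 9353 CPM in the low-fraction libraries. In the high-translating fraction they summed to 722 ± 24.7 CPM in control, 838 ± 89.6 in UAU, 839 ± 53.2 in GAUi and 568 ± 73.4 CPM in isoswitch cells. The part of this difference in the high-fraction results above was not tested.

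In control cells, 2 members were called between the high and the low-translating fraction, where 66% of 12266 genes were called. SCAP mRNA was more abundant in the high-translating fraction (145 ± 10.0 against 103 ± 17.1 CPM; log2 difference 0.47, SE 0.11, adjusted p = 0.00129), and MYLIP mRNA less (20.1 ± 1.81 against 30.2 ± 4.66 CPM; -0.60, SE 0.13, adjusted p = 0.000722). INSIG1 was nearly even (-0.08, SE 0.10, adjusted p = 0.524). Without low-fraction control B, 7 members were called, where 67% of 12444 genes were called. INSIG1 (-0.22, adjusted p = 0.00706), INSIG2 (-0.58), SREBF1 (-0.50) and STARD4 (-0.28, adjusted p = 0.032) were then lower in the high-translating fraction and SREBF2 (0.43) was higher, with SCAP at 0.59 and MYLIP at -0.58. These values are shares of each fraction's mRNA, not amounts of RNA.

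Whether the share of an mRNA in heavy polysomes changed beyond its total level was tested as the high-to-total ratio of each line against control. By edgeR 0 members were called in UAU (7.32% of 12540 genes), GAUi (0.718%) and isoswitch (0%). At an unadjusted p under 0.05 these counts were 2, 1 and 0, and DESeq2 called 0, 1 and 0 members. Over all genes in isoswitch cells, edgeR and DESeq2 both called 0, with 648 genes at an unadjusted p under 0.05. For INSIG1, whose ratio is built from the libraries that chose it and is given without a test, the difference from control was 0.11 (SE 0.11) in UAU, 0.22 (SE 0.11) in GAUi and -0.05 (SE 0.11) in isoswitch cells. The ratio of MYLIP in UAU was -0.55 (SE 0.18, adjusted p = 0.0524; 0.0292 with UAU and control libraries alone). For STARD4 in GAUi it was 0.59 (SE 0.16, adjusted p = 0.0746), and DESeq2 gave 0.59 (adjusted p = 0.0448). Without total RNA GAUi library C it was 0.69 (adjusted p = 0.0266), and without A or B 0.51 and 0.57 (adjusted p 0.0742 and 0.0806).

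Over all 36 libraries, with each fraction centred on its own mean, the 6 genes whose log2 CPM was most like that of INSIG1 among 8857 genes included SCD (Pearson r = 0.94), CYP1B1 (0.86), NFIL3 (0.83), AMIGO2 (0.83) and MIR22HG (0.82). These are descriptions over libraries that share lines. SCD, the stearoyl-CoA desaturase that makes monounsaturated fatty acids, held 251 ± 12.1 CPM in control total RNA, 138 ± 3.65 in UAU, 170.2 ± 8.40 in GAUi and 143 ± 7.66 CPM in isoswitch cells, the same order as INSIG1. CYP1B1, a cytochrome P450 monooxygenase, held 108 ± 4.76, 80.7 ± 5.68, 76.7 ± 3.43 and 71.0 ± 1.12 CPM in the same lines. Among the members STARD4 was the most like INSIG1, at r = 0.75 and rank 18. The others ranged from -0.31 for INSIG2 to 0.38 for NPC1.

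The wider pathway was read from 7 gene lists. Over all genes, 0.914%, 10.1% and 4.05% were called in total RNA of UAU, GAUi and isoswitch cells, 0.691%, 3.4% and 2.58% in the low fraction, and 28.7%, 10.1% and 11% in the high-translating fraction. Of 23 cholesterol synthesis enzymes, 4 were lower in total RNA of UAU, 4 in GAUi and 5 in isoswitch cells, none higher, with medians of -0.23, -0.19 and -0.25. Without GAUi library A, 7 were lower and 1 higher in GAUi, where 17.1% of genes were called. Without B or C, 3 and 4 were lower, where 11.8% and 11.3% of genes were called. CYP51A1, lanosterol demethylase, fell from 96.9 ± 3.88 CPM to 59.6 ± 9.65 in GAUi and 58.7 ± 4.71 CPM in isoswitch cells. HMGCS1, HMG-CoA synthase, fell from 53.0 ± 7.44 to 26.8 ± 3.35 CPM in UAU. Among heavy polysomes 14 of 23 were lower in UAU (28.7% of all genes called in either direction), 2 in GAUi (10.1%) and 5 in isoswitch cells (11%), with none higher, and medians of -0.43, -0.31 and -0.27. IDI1, isopentenyl diphosphate isomerase, fell there from 58.0 ± 7.37 to 27.9 ± 0.565 CPM in UAU. Of the low-fraction values, 1 of 22 tested was lower in UAU, 3 in GAUi and 1 in isoswitch cells. Without control library B these counts were 5, 3 and 3, where 1.65%, 6.01% and 5.33% of genes were called.

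Of 13 genes for lipoprotein receptors and uptake, 2, 2 and 3 were lower in total RNA of UAU, GAUi and isoswitch cells and none higher, with medians from -0.06 to -0.01. Without GAUi library A, 3 were lower in GAUi, where 17.1% of genes were called. LRP8, a lipoprotein receptor that also binds reelin, fell from 92.9 ± 5.49 to 68.4 ± 6.29 CPM in isoswitch cells. Among heavy polysomes 3 of 12 were lower and 3 higher in UAU, where COMMD1, which takes part in endosomal receptor recycling, rose from 57.4 ± 4.86 to 72.5 ± 3.48 CPM. Of 15 genes of fatty acid synthesis and desaturation, 2, 1 and 3 were lower in total RNA (2 in GAUi without its library A, with 17.1% of genes called) and 7, 3 and 5 in the high-translating fraction, none higher. FADS1, a fatty acid desaturase, fell there from 355 ± 5.18 to 262 ± 21.8 CPM in UAU.

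Of 14 genes for SREBP processing and export from the endoplasmic reticulum, 1 was called in total RNA of any line, higher in GAUi. It was MBTPS1, the Golgi protease that makes the first cut in SREBPs (36.3 ± 1.86 to 47.7 ± 8.47 CPM; log2 fold change 0.38, adjusted p = 0.0414), and its call was lost without GAUi library A (0.23, adjusted p = 0.118). In the high-translating fraction of UAU, PAQR3, a Golgi anchor of SCAP, rose from 10.8 ± 0.916 to 17.6 ± 3.32 CPM, while SEC13 and SEC23B, coat proteins of vesicles leaving the endoplasmic reticulum, fell by 0.44 and 0.56 on the log2 scale. Of 13 genes of sterol-regulated degradation in the endoplasmic reticulum, 1 was higher and 4 lower in that fraction of UAU, and in GAUi total RNA 2 were lower without library A and 1 without C, against none with all libraries. The higher one was RNF145, a ubiquitin ligase (106 ± 4.22 to 149 ± 2.23 CPM). Lysosomal and intracellular sterol transport had 2 higher and 8 lower of 18 tested in the UAU high-translating fraction, 1 and 4 in GAUi, and 1 and 0 in isoswitch cells. In GAUi total RNA, 1 of these 18 was lower, while without GAUi library B 2 were higher and none lower, and without C none was called. LAMP1 and LAMP2, lysosomal membrane proteins, fell by 0.58 and 0.76 on the log2 scale in the high-translating fraction of UAU. None of this list was called in total RNA or the low fraction of UAU with all libraries. Without low-fraction control library B, 1 of 17 tested was lower in the UAU low fraction, where 1.65% of genes were called. Of 9 tested genes of LXR and sterol efflux, 2 were lower in GAUi total RNA. One was ABCA1, the cholesterol exporter and an LXR target (17.2 ± 1.54 to 11.7 ± 1.41 CPM, -0.58). Without GAUi library A or B, 1 of the 9 was also higher. With all libraries, the medians and shares called over all genes are those given with the members. In total RNA without GAUi library A, B or C, 17.1%, 11.8% and 11.3% of genes were called between GAUi and control.

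**Figure D5:**
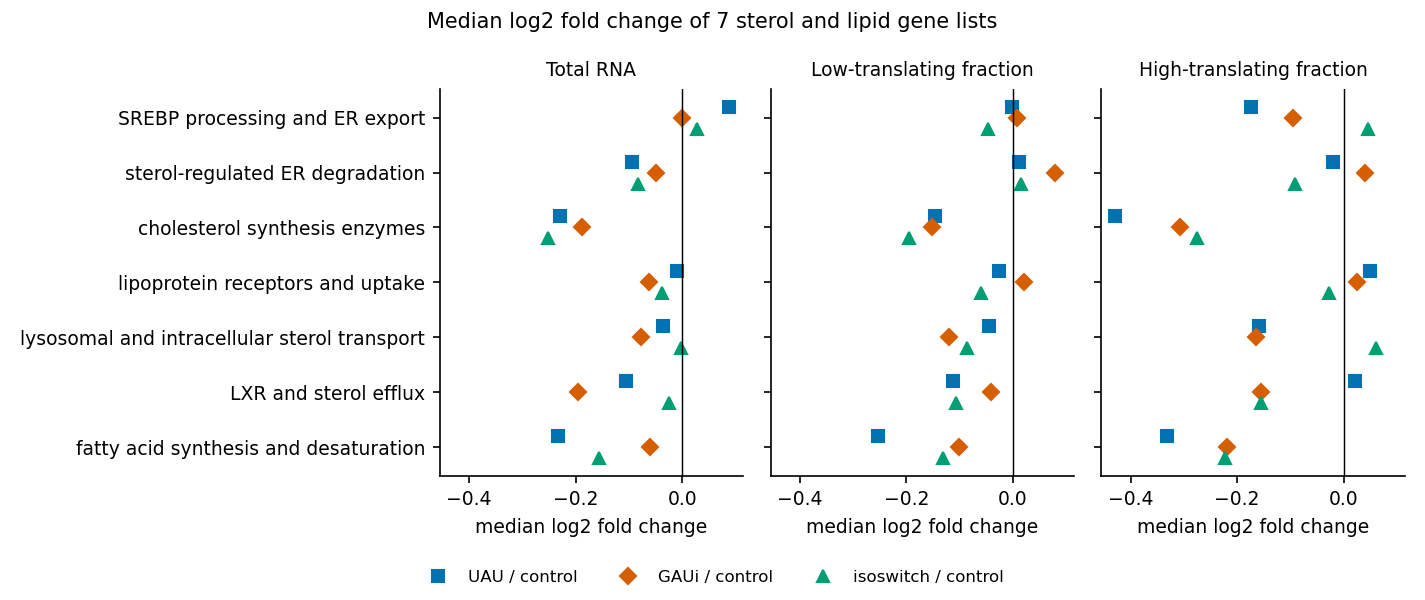
Median log2 fold change against control (horizontal axis) over the tested genes of 7 sterol and lipid lists, in UAU (blue squares), GAUi (orange diamonds) and isoswitch cells (green triangles), by fraction. The cholesterol synthesis enzymes have the lowest median in the UAU high-translating fraction (-0.43).

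Some reads may belong to overlapping genes, since whether strand was used in counting is not given in the sources used here. STARD4-AS1 overlaps STARD4 and was at 4.30 CPM on average, with no line called against control (log2 fold changes from -0.29 to 0.03). RAI1 overlaps SREBF1, averaged 13.9 CPM and, like SREBF1, was lower in the high-translating fraction of UAU (-0.45, SE 0.16, adjusted p = 0.0358), so the 2 cannot be fully told apart there. C18orf8 (current symbol RMC1) overlaps NPC1 and was at 16.2 ± 0.556 CPM in control and 13.3 ± 1.06 CPM in UAU in that fraction (-0.28, adjusted p = 0.113). INSIG1-DT and LOC105375592 overlap INSIG1, LOC105377073 overlaps SCAP, and SREBF2-AS1 overlaps SREBF2. These symbols are not among those counted, so no levels are given for them.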

How the data were processed

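The measured libraries were Lexogen QuantSeq 3' mRNA libraries made from 500 ng of RNA, per the labels' protocols. The deposited values are whole-number counts per gene symbol, 1 file per library, and the authors' processing used STAR, featureCounts, DESeq2 and hg38, per the submitters' processing notes; the sources used here give no versions and no strand setting. The members and lists were chosen with earlier results of these data known. Counts were tested with edgeR 4.0.16 in R 4.3.3 (filterByExpr, TMM, quasi-likelihood test, Benjamini-Hochberg over all genes tested, called at adjusted p under 0.05). The 12 libraries of a fraction shared a fit, the high-low comparison used 9 control libraries, and the ratio used 24. SE is the absolute log2 fold change over the square root of F. Alternatives were RLE scaling, DESeq2 1.42.0, no filter, a replicate block, only the lines compared, and each library left out. The scripts were tested on simulated data. Named genes were all members, up to 3 called genes of lowest p per list and comparison and the 6 genes most like INSIG1 (average log2 CPM of at least 3, prior count 2). Some genes under this rule are not reported here. Same-letter replicates did not deviate together in every pair, so letters were not treated as pairs. Promoter sequences are from RefSeq (GRCh38.p14), which matched all 8 members.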

Additional observations from a re-analysis of the deposited data

Results flagged for a closer look

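In the high-translating fraction the effect of UAU overexpression differed between cells with CRISPRi against the GAU tRNA and cells with CRISPRi against eGFP, by the edgeR interaction term, for 4 members other than INSIG1. The difference was 0.81 on the log2 scale for SREBF1, 0.76 for MYLIP, 0.58 for NPC1 and -0.46 for SCAP. Such a difference was called for 35.7% of all genes tested in that fraction. The NPC1 call was lost without GAUi A, GAUi B or isoswitch A (edgeR adjusted p 0.0501, 0.0546 and 0.0658). SREBF2, at -0.35 (adjusted p = 0.0654), was called without control C (0.0356) or isoswitch B (0.0461). Summed SNHG transcripts also differed between the lines there, at 839 ± 53.2 CPM in GAUi and 568 ± 73.4 CPM in isoswitch cells (SD, n = 3), and their part in these values was not tested.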

How the results depend on the processing

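Of 200 member results, 38 were called, 23 of these under every alternative, and 15 were lost under at least 1. Of 162 not called, 24 were called under at least 1 alternative, and 0 changed sign while called. These counts take in the INSIG1 values of total RNA, the high fraction and their ratio, which are descriptions. Over all genes, the share called in the 25 comparisons ran from 0% to 66%. The member counts here and below describe dependence on processing, and nothing about the members is read from them. With only the lines compared, member calls against control in total RNA went from 5 to 8, calls between modified lines in total RNA from 2 to 0, and ratio calls from 0 to 1. With DESeq2, ratio calls were 1, interaction calls in total RNA 2 instead of 1, and in the low fraction 1 instead of 0; with no filter the interaction calls were likewise 2 and 1. Leaving out single libraries gave 5 to 9 member calls against control in total RNA (9 without GAUi A), 3 to 6 in the low fraction (6 without control B) and 6 to 10 in the high. Between modified lines it gave 0 to 4 in total RNA (0 without UAU B or UAU C) and 6 to 11 in the high fraction, for the interaction 0 to 1 in the low and 4 to 6 in the high fraction, for high against low in control 2 to 7 (7 without control B), and for the ratio 0 to 1.

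Over all genes, total RNA calls against control went from 1861 to 3143 with only the lines compared, and single libraries gave 789 to 3698. Interaction calls in total RNA went from 3 to 38 with DESeq2 and 95 with no filter. Low-fraction calls against control went from 830 to 1620 with no filter, 532 with the replicate block and 376 with only the lines compared. Those between modified lines went from 1021 to 654 with the block and 1533 with only the lines compared, and interaction calls from 29 to 243 with DESeq2, 251 with no filter and 0 with the block. The cause of these changes was not tested.

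The letters were not treated as pairs. Between lines, same-letter correlations of deviations ranged from -0.15 to 0.21 in total RNA, -0.49 to 0.33 in the low and -0.24 to 0.30 in the high fraction. Within a line, total RNA and the high fraction had a median of 0.06 for same letters and -0.03 for other letters. For the low and high fractions these medians were -0.03 and 0.01. With the replicate block, member calls against control were 5 in total RNA, 3 in the low and 9 in the high fraction, and those between modified lines 2, 0 and 11, as without it. Counts of the pathway lists without a GAUi total RNA library or low-fraction control B were added after seeing the data and stand beside the lists. Depth limits INSIG2 most, at 24 to 105 counts per library.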
